A study of Mus musculus with 8 samples.

Results

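The genes described here are those of secreted or membrane-bound cytokines and chemokines, the signalling proteins by which immune, vascular and neural cells recruit and activate each other. They were chosen by the gene symbol that the array's annotation gives a row: Ccl, Cxcl or Il with a number and at most 1 letter, any symbol starting with Tnfsf, and Tnf, Csf1, Csf2, Csf3, Cx3cl1, Ifng and Ifnb1. Receptors, among them Il7r, Il9r, Il21r and Il23r, were left out. The rule found 85 rows for 84 genes, of 19505 named genes on 22206 rows. Ccl21b had 2 rows, and the row with the higher mean was kept. By family there were 23 CC chemokines, 14 CXC and CX3C chemokines, 10 members of the tumour necrosis factor superfamily, 32 interleukins, and 5 colony-stimulating factors and interferons.

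A chemokine binds a G protein-coupled receptor on a leukocyte or neural cell and guides its movement. Most interleukins, interferons and colony-stimulating factors act through receptors coupled to JAK kinases and STAT transcription factors, and ligands of the tumour necrosis factor and Il1 families act through NF-kappa-B. In the resting brain a few members are made constitutively, such as Cx3cl1 and Il34 by neurons, while inflammatory members such as Tnf, Il1b, Il6 and Ccl2 are kept low and are switched on by infection, injury or strong stress.

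RNA came from the brains of male ICR mice, an outbred strain, which were bought at 8 weeks of age, kept for 1 week and then given water or extract for 7 days. There were 4 groups with 2 arrays each. Mice of 1 group were given water and were not hung by the tail. Mice of the other groups went through the tail suspension test (TST), an acute stressor in which immobility is scored, after water, low-dose rosemary extract (RE) at 10 mg/kg, or high-dose RE. For the high dose, titles give 100 mg/kg while the source names give 50 mg/kg. A further field calls the water group without TST the positive control and the water group with TST the negative control, and the groups used here follow the titles. The labels call the tissue both limbic system and hippocampus, and assign 7 mice to a group without saying whether an RNA sample was 1 mouse or a pool. The p-values therefore measure only the spread between these samples, which may be technical. Clariom S arrays were used, and the deposited values are log2 intensities. These are bulk samples, in which fewer cells of a type and less RNA per cell cannot be told apart.

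Array medians lay between 7.45 and 7.51. The tissue labels were checked against markers by the number with a mean above the median of all values: 10 of 11 measured for forebrain excitatory neurons and 10 of 12 for dentate gyrus and hippocampal neurons. The count was as high for other regions, with 10 of 10 for striatal and 9 of 10 for thalamic neurons, 8 of 11 for choroid plexus and 7 of 10 for cerebellum, so it does not single out the labelled tissue. Array water with TST replicate 2 stood apart in cerebellar and forebrain markers. The mean of 10 measured markers of cerebellar granule and Purkinje cells lay 4.32 above its 8-array mean there, 2.39 above it on replicate 1 of water without TST, and between -1.47 and -0.311 on the other 6 arrays. Markers of forebrain excitatory neurons had a mean deviation of -2.01 there. The labelled tissue holds no cerebellum, so this array goes against its label in part, as does replicate 1 of water without TST by a smaller deviation. Differences of named members that rest on water with TST replicate 2 are given with and without it. The receptor, signalling and marker lists were counted only with it. The 2 arrays of water with TST correlated at 0.968 across rows, against 0.985 to 0.992 for the pairs of the other groups. Striatal markers split both water pairs. Without TST their mean deviation was 0.0651 for replicate 1 and 1.77 for replicate 2, the highest of the 8 arrays. With TST it was 0.305 for replicate 1 and -1.20 for replicate 2, the lowest. Among 16 measured microglial markers, 10 had means above the median of all values, but among 11 measured markers of lymphocytes only 1 did, and among 11 of perivascular and blood myeloid cells only 2.

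Most cytokine and chemokine genes gave dim signals. Of the 84 genes, 17 had an 8-array mean above the median of all values, 7.47, and 67 lay below it. That is 20.2% of the genes, against a background of 49.8% of all rows. When all rows were sorted by mean level into 4 bins of equal size, 35 of the genes fell in the lowest bin, 32 in the second, 12 in the third and 5 in the highest. The median of the 84 means was 5.85 and their range 3.64 to 15.53 on the log2 scale. All 8 arrays were above the median of all values for 14 genes and all 8 below it for 63, and 7 genes had values on both sides. The count of 17 was the same without any 1 array and after quantile normalization. No detection call comes with these values, so a dim row cannot be read as an unexpressed gene. A row's level also depends on its probes, so the order of genes by these values is not an order of their expression.

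**Figure D1:**
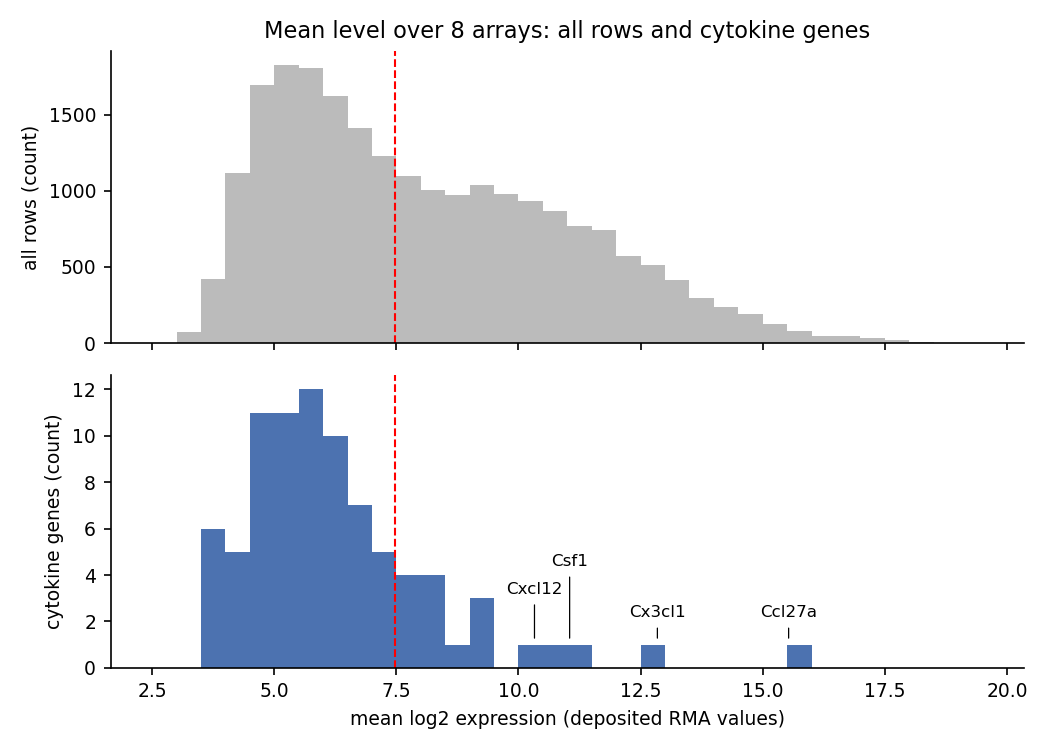
Mean log2 expression over 8 arrays of all 22206 rows (upper panel, count of rows) and of the 84 cytokine and chemokine genes (lower panel, count of genes); the dashed line is the median of all values, 7.47. Of the 84 genes, 17 lie to the right of the line, and the lower panel names 4 of them.

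The families differed in how many members were above the median. Both interleukins grouped here as other, Il16 and Il34, were above it, as were 2 of 4 genes of the Il1 family (Il18 and Il33). Of 23 CC chemokines 6 were above it, of 14 CXC and CX3C chemokines 3, of 10 tumour necrosis factor superfamily genes 2 (Tnfsf14 and Tnfsf15), of 6 Il17 family genes 1 (Il17b), and of 5 colony-stimulating factors and interferons 1 (Csf1). None of the 6 common gamma chain interleukins, 5 Il6 and Il12 family genes, 5 Il10 family genes and 4 type 2 and haematopoietic interleukins was above it.

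Of the genes above the median, Cxcl12, Csf1 and Il18 are described next, and Cx3cl1 and Il34, which varied more, with the differences between arrays. Cxcl12, the ligand of Cxcr4 that guides migrating neurons and leukocytes, was at 10.16 and 10.33 in water without TST, 10.45 and 10.44 in water with TST, 10.29 and 10.15 with low-dose RE, and 10.36 and 10.44 with high-dose RE. Its whole range over 8 arrays was 0.30. Csf1, a ligand of the microglial survival receptor Csf1r, was at 11.02 and 11, 11.17 and 10.89, 11.04 and 10.80, and 11.19 and 11.27 in the same order of groups. Both high-dose arrays were above all other arrays for Csf1, by a small margin over water with TST replicate 1. Il18, released by the inflammasome, was at 10.50 and 11, 11.06 and 10.54, 11.24 and 10.96, and 11.20 and 11, with overlapping groups. The receptor genes Csf1r and Cx3cr1 ranged from 8.45 to 10.07 and from 6.93 to 7.71, with Csf1r lowest on water with TST replicate 2 and Cx3cr1 lowest on high-dose RE replicate 1.

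Il33, a nuclear alarmin made in brain by oligodendrocytes and astrocytes, was at 9.45 and 9.55 in water without TST, 9.40 and 9.48 in water with TST, 9.37 and 8.55 with low-dose RE, and 10.11 and 9.22 with high-dose RE. Its highest array was in the high-dose group and its lowest in the low-dose group, and these 2 groups overlapped. Cxcl14, a chemokine of epithelia that some interneurons also make, was at 9.06 and 9.01, 9.27 and 8.19, 9.52 and 8.64, and 8.73 and 8.74. The arrays of a pair differed by more than any group means did in water with TST and in low-dose RE. The epithelial chemokines Ccl25, Ccl28 and Ccl20 had means of 9.32, 8.15 and 8.10, and Ccl17, a chemokine of dendritic cells, of 7.74.

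**Figure D2:**
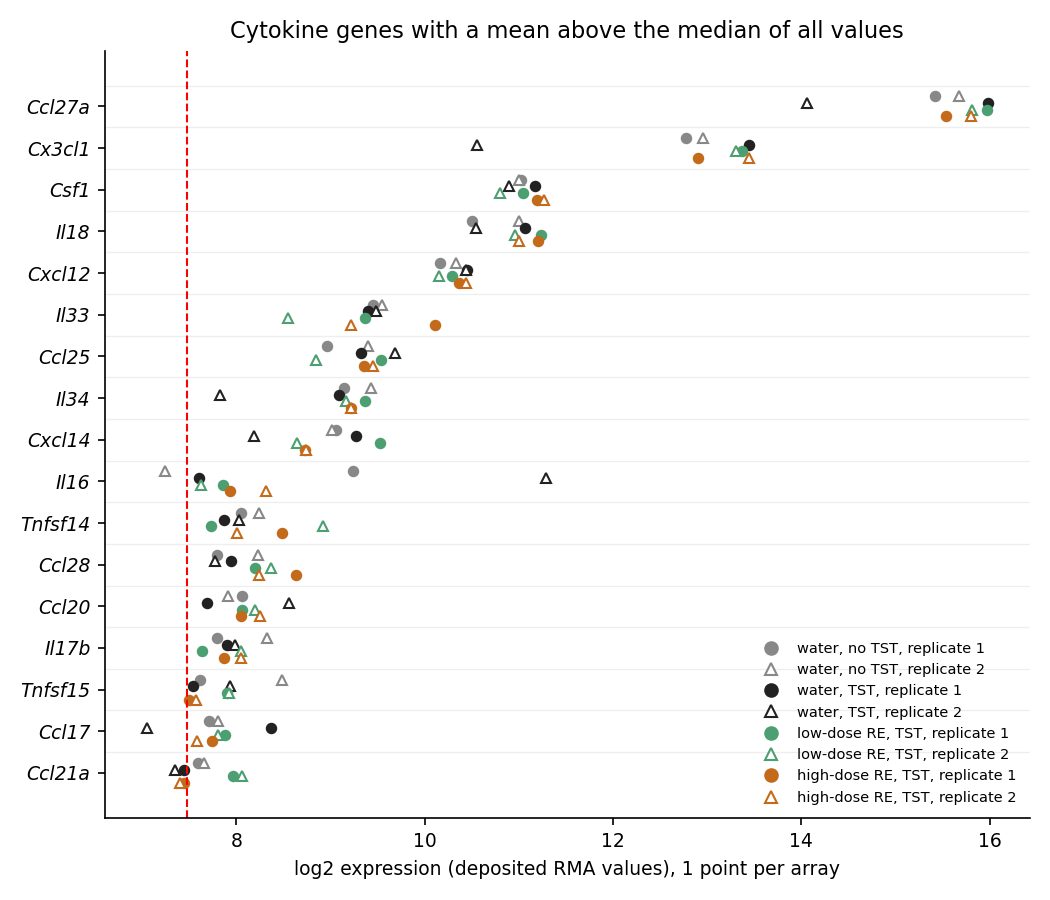
Deposited log2 expression of the 17 genes with a mean above the median of all values (dashed line, 7.47), 1 point per array; colour gives the group, filled circles replicate 1 and open triangles replicate 2. Il16 is far to the right on water with TST replicate 2 (11.29), where Cx3cl1 (10.55), Ccl27a (14.06) and Il34 (7.83) are far to the left.

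Tnf, Il6 and Il1b, cytokines that acute brain inflammation induces, had means below the median of all values. Tnf, the founding member of its family, was at 3.64 and 3.65 in water without TST, 3.87 and 3.87 with TST, 3.77 and 3.59 with low-dose RE, and 3.69 and 3.71 with high-dose RE. Il6 was at 4.86 and 4.65, 4.55 and 4.06, 4.76 and 4.59, and 5.27 and 4.00, so the high-dose pair alone spanned all other arrays. Il1b was at 5.97 and 6.06, 6.32 and 5.83, 6.38 and 6.78, and 5.57 and 6.64. Its 2 high-dose arrays lay on either side of all 4 water arrays.

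Among inflammatory chemokines, Ccl2, which recruits monocytes, ranged from 5.37 to 6.39, with both of these extremes in the low-dose group. Ccl3 ranged from 5.57 to 6.13 and Cxcl10, induced by interferons, from 3.69 to 4.18. Ccl5, a chemokine of T cells, was between 3.51 and 3.73 on 6 arrays, at 4.70 on water with TST replicate 2 and at 4.4 on low-dose RE replicate 2. Cxcl16, a membrane-bound chemokine, ranged from 6.76 to 7.57. Ifng and Ifnb1, the type 2 and a type 1 interferon, had means of 6.65 and 5.15, Il10, an anti-inflammatory cytokine, 6.53, Il12a 6.28 and Il15 5.64. The death receptor ligand Tnfsf10 and the B cell survival factor Tnfsf13b had means of 6.43 and 6.24, with ranges of 5.96 to 6.81 and 5.78 to 6.63.

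The members were set beside their promoters, which the choice by symbol did not use. RefSeq sequences on GRCm38.p6 matched 60 of the 84 genes by gene identifier, 15 above and 45 below the median of all values, and the 250 bases before the most upstream start of each were searched. The hexamer TATAAA, the core of a TATA box, was searched on the gene's own strand only. It lay in 19 of the 45 promoters of the dimmer genes (42.2%) and in 2 of the 15 of the brighter genes (13.3%), against 8.14% of 15688 promoters of measured genes. It lay wholly between 40 and 16 bases before the start in 13 of the 45 and in 0 of the 15, against 2.83%. The kappa-B motif bound by NF-kappa-B, searched by its consensus on both strands, was in 9 of 45 (20%), 2 of 15 (13.3%) and 7.61%. The AP-1 motif TGANTCA was in 6 of 45, 2 of 15 and 6.33%, and the motif of interferon regulatory factors, GAAA repeated after a gap of 2 bases, in 4 of 45, 1 of 15 and 3.03%, both on either strand. The median number of CpG dinucleotides was 3 in the dimmer, 4 in the brighter and 10 in all measured genes. These are matches of letters, given without a test because paralogous members share sequence.

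The promoters of Cx3cl1 and Cxcl12 are shown because both ligands are bright here and CpG-rich beyond most members. Capitals mark CpG dinucleotides, of which there are 14 in each. Cx3cl1 is also 1 of the 2 brighter genes with TATAAA, left in lower case here.
Cx3cl1, chr8:94771930-94772179, plus strand: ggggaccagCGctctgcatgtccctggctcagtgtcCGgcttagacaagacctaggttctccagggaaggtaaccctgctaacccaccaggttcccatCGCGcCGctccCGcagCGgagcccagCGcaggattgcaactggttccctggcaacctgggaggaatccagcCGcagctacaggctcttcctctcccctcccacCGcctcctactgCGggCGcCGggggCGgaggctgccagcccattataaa
Cxcl12, chr6:117168285-117168534, plus strand: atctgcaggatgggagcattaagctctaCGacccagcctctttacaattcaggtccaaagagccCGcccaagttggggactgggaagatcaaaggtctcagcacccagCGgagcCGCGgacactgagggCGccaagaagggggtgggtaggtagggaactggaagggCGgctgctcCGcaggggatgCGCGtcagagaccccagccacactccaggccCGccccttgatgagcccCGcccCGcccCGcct

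Il1a, Tnf and Cxcl10 are shown as dim inflammatory genes with motif matches. In them capitals mark TATAAA, kappa-B, AP-1 and interferon regulatory factor motifs. Il1a and Tnf hold TATAAA starting 32 and 29 bases before the start, and Il1a an AP-1 motif starting 12 bases before it. Cxcl10 holds matches to the other 3 motifs, and its kappa-B block nearer the start is made of overlapping matches.
Il1a, chr2:129309973-129310222, minus strand: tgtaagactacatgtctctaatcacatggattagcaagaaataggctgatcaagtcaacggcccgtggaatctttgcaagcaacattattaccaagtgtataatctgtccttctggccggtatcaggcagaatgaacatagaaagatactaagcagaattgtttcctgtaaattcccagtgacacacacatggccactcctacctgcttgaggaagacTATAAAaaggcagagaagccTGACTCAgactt
Tnf, chr17:35202008-35202257, minus strand: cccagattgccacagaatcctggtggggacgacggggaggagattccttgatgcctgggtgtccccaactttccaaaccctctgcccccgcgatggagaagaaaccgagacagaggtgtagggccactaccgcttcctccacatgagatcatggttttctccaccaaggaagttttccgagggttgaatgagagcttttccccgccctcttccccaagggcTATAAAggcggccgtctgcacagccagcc
Cxcl10, chr5:92348890-92349139, minus strand: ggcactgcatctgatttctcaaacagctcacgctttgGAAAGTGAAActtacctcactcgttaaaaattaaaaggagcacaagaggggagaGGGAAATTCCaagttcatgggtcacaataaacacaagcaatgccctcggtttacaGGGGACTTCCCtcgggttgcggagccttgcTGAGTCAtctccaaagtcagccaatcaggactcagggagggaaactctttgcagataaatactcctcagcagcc

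**Figure D3:**
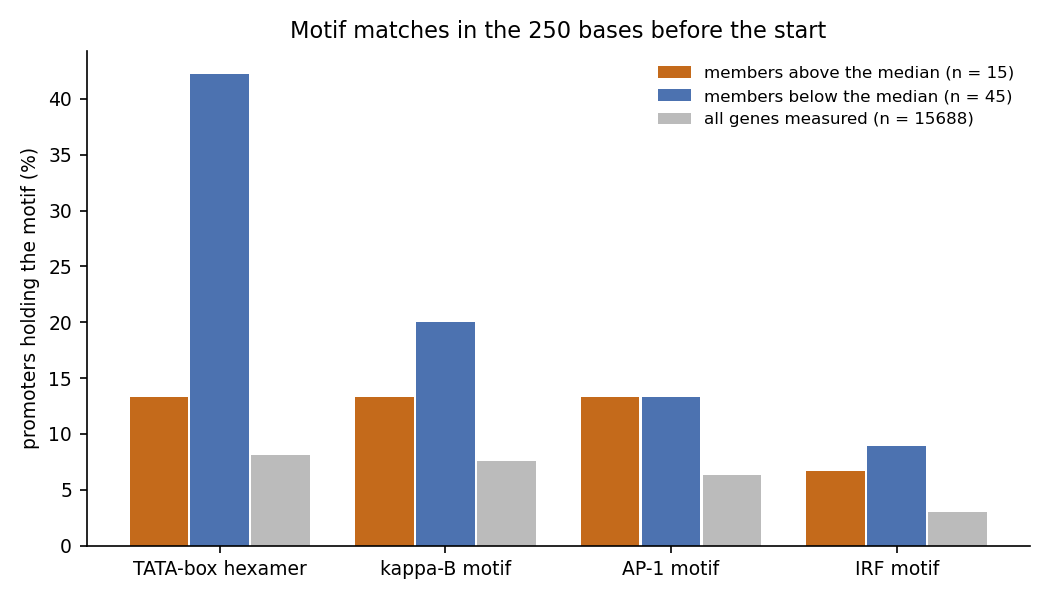
Share (%) of promoters, the 250 bases before the start, that hold each motif, for 15 cytokine genes above and 45 below the median of all values and for 15688 measured genes. The TATA-box hexamer is in 42.2% of the dimmer, 13.3% of the brighter and 8.14% of all measured genes.

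The 3 widest ranges over the 8 arrays among the 84 genes were those of Il16 (4.05), Cx3cl1 (2.89) and Ccl27a (1.92), and 1 array set 1 end of each. Il16 was at 9.24 and 7.24 in water without TST, 7.60 and 11.29 in water with TST, 7.86 and 7.62 with low-dose RE, and 7.93 and 8.31 with high-dose RE. It encodes a chemoattractant for CD4+ cells, and a longer neuronal form is known from cerebellar and hippocampal neurons. Its highest array was water with TST replicate 2 and the next replicate 1 of water without TST, which were also the highest in cerebellar markers. The granule cell gene Gabra6 was at 16.37 and 14.31 on these arrays and between 4.69 and 8.42 on the others, and Cbln1, of the same cells, at 16.44 and 14.47 against 9.64 to 10.51.

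Cx3cl1, fractalkine, a membrane-bound chemokine of forebrain neurons that signals to microglia, went the other way. It was at 12.78 and 12.96, 13.44 and 10.55, 13.37 and 13.31, and 12.90 and 13.44 in the same order of groups. Ccl27a was at 15.42 and 15.67, 15.98 and 14.06, 15.97 and 15.81, and 15.54 and 15.80. Ccl27a neighbours Il11ra1 and has a near-identical copy, Ccl27b, so its signal is uncertain. Il34, the neuronal ligand of Csf1r, was at 9.14 and 9.43, 9.09 and 7.83, 9.37 and 9.16, and 9.22 and 9.22. Each of these 3 genes was lowest on water with TST replicate 2, the array that was also lowest in forebrain excitatory neuron markers, and on the other 7 arrays they ranged from 12.78 to 13.44, 15.42 to 15.98 and 9.09 to 9.43.

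Across the members, the arrays of water with TST differed by more than 1 log2 unit in 12 of 84 genes (14.3%), against 12.7% of all rows. The count was 1 in water without TST (Il16; 1.19%, against 3.27% of all rows), 5 with low-dose RE (Ccl2, Cxcl13, Il13, Il27 and Tnfsf14; 5.95%, against 6.48%) and 2 with high-dose RE (Il1b and Il6; 2.38%, against 1.63%). Dim genes, picked after their values were seen, moved with that array too: Il7, a lymphocyte growth factor, was at 5.69 there and between 3.91 and 4.96 elsewhere, and Il22 at 6.33 there and between 4.59 and 5.40 elsewhere. The part of cerebellar RNA in these differences was not tested.

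**Figure D4:**
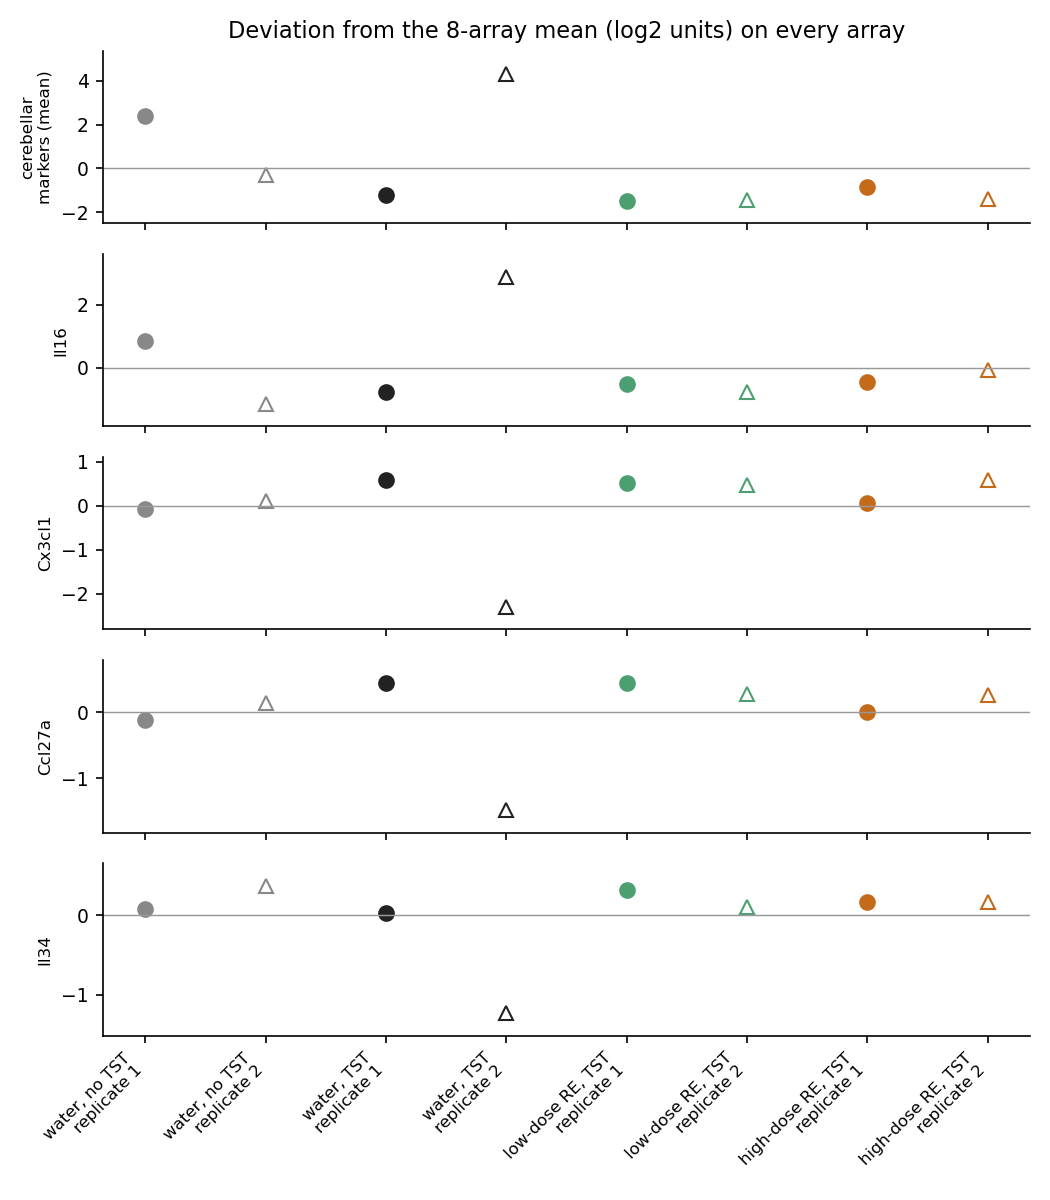
Deviation in log2 units from the 8-array mean, on every array, of the mean of 10 cerebellar markers and of Il16, Cx3cl1, Ccl27a and Il34; the vertical scale differs between panels. Water with TST replicate 2 is the highest array for the markers (4.32) and Il16 and the lowest for the other 3 genes.

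The first comparison, water with TST against water without it, asks what the stressor changed. No cytokine or chemokine gene rose or fell by the study's threshold, a fold above 1.2 with an unadjusted p under 0.05 in the limma fit to all 8 arrays. The count was 0 of 84, where the background was 2.55% of all rows; 0 genes had an unadjusted p under 0.05 and 0 an adjusted one. The median difference was -0.02, with 40 genes higher and 44 lower, against a median of 0.005 over all rows. Each difference is of group means on the log2 scale, from 2 arrays a group, and SE is its standard error in the fit. Among genes above the median of all values, Cx3cl1 was at -0.875 (SE 0.753), Il34 at -0.825 (SE 0.383) and Ccl27a at -0.525 (SE 0.524). At the other end were Il16 at 1.21 (SE 1.06), Ccl25 at 0.32 (SE 0.304) and Cxcl12 at 0.20 (SE 0.216). None of these passed the threshold. The groups overlapped for Cx3cl1, Ccl27a, Ccl25 and Il16 but not for Il34 or Cxcl12, and Il34 passed it after quantile normalization (-0.85). The dim gene Il1a was at -0.695 (SE 0.342) and its groups did not overlap. It missed the threshold in the main fit but passed after quantile normalization (-0.694) and with a replicate block (-0.695).

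The groups did not overlap in 27 genes, which is 32.1% of the genes where 27.5% of all rows did not overlap. The Il16 difference also depended on the arrays of water without TST, at 2.205 without their replicate 1 and 0.205 without their replicate 2. The 2 arrays of water with TST gave different pictures. Without replicate 2, Cx3cl1 was at 0.57, Ccl27a at 0.435, Il16 at -0.64 and Il34 at -0.195, and 3 genes passed the threshold (background 3.29%): Il1a at -1.04, Il12a at 0.79 and Ccl17 at 0.615. Without replicate 1, 12 passed (background 16.7%), among them Il16 at 3.05 and Cx3cl1 at -2.32. Without replicate 1 of water without TST, 1 passed (2.29% of all rows), as without either low-dose array (2.78% of all rows). The methods' one-way analysis of variance, on the 4 arrays compared, called 4 genes at the study's limits (background 2.72%): Ccl8 and Cxcl2 at 0.395 each, Il10 at 0.265 and Cxcl9 at -0.50. These names were taken after their values were seen.

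Low-dose RE was then compared with water in mice that went through TST. Il1a and Ccl21a passed the study's threshold, both higher, which is 2 of 84 genes (2.38%) where the background was 3.54% of all rows, and 1.94% in the higher direction. Neither had an adjusted p under 0.05 (adjusted p = 0.946 for both, limma). Il1a encodes an alarmin of the Il1 family. It was at 4.94 and 5.07 in water without TST, 3.97 and 4.65 in water with TST, 5 and 5.84 with low-dose RE, and 4.85 and 5.05 with high-dose RE. Both arrays of water with TST were the lowest of the 8, and the difference was 1.11 (SE 0.342), with both low-dose arrays higher. Low-dose RE replicate 1 lay between the 2 arrays of water without TST, and replicate 2 above all other arrays.

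Ccl21a encodes a chemokine that draws Ccr7-bearing lymphocytes and dendritic cells. It was at 7.59 and 7.66 in water without TST, 7.44 and 7.35 in water with TST, 7.96 and 8.06 with low-dose RE, and 7.44 and 7.40 with high-dose RE. The low-dose mean of 8.01 ± 0.0707 (SD, n = 2) lay above all 6 other arrays, and the difference from water with TST was 0.615 (SE 0.212). The rows of Ccl21b and Ccl21c held identical values, so these near-identical copies count as 1 measurement: 7.05 and 6.86, 6.89 and 6.23, 7 and 7.19, and 6.49 and 6.44. Their difference was 0.535 (SE 0.272) and did not pass the threshold. Probes of one copy may also bind RNA of another, so which copy carries the signal is uncertain.

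Neither call held in every setting. Ccl21a missed the threshold without water with TST replicate 2 (0.57), without low-dose RE replicate 2 (0.565), in the fit of only the 4 arrays compared and without both arrays high in cerebellar markers (0.57). Il1a missed it without water with TST replicate 1 (0.77), without low-dose RE replicate 2 (0.69) and in the methods' analysis of variance. Of the genes above the median of all values, Cx3cl1 was at 1.35 (SE 0.753), Ccl27a at 0.87 (SE 0.524), Il34 at 0.805 (SE 0.383), Il16 at -1.71 (SE 1.06), Il33 at -0.48 (SE 0.364) and Ccl25 at -0.305 (SE 0.304), none past it. Without water with TST replicate 2 these became -0.10 for Cx3cl1, -0.09 for Ccl27a, 0.175 for Il34 and 0.14 for Il16, while leaving out a low-dose array moved Il33 to -0.89 (replicate 1) or -0.07 (replicate 2) and Ccl25 to -0.65 or 0.04. Without water with TST replicate 2, 2 genes passed (background 3.49%), Il1a at 1.45 and Tnfsf18 at 0.875. Without replicate 1 of that group 15 passed (background 17%), and without low-dose RE replicate 1, 9 passed, where 7.76% of all rows did. Without low-dose RE replicate 2, 1 passed (3.13% of all rows). The analysis of variance called Ccl21a and, picked after the fact, Cxcl2 at -0.365 (background 2.19%). The median difference over the 84 genes was -0.02, against 0.015 over all rows, and the groups did not overlap in 23 genes (27.4%; background 25%).

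High-dose RE against water with TST gave no gene past the study's threshold: 0 of 84 in limma, 0 at an unadjusted p under 0.05, and a background of 3.17%. The median difference was 0.0025 against 0.01 over all rows, with 42 genes higher, 41 lower and 1, Il15, at 0. The comparison shares its control arrays with the low-dose one, so values are set side by side without a correlation. Cx3cl1 was at 1.18 (SE 0.753), Il34 at 0.76 (SE 0.383), Ccl27a at 0.65 (SE 0.524), Il16 at -1.33 (SE 1.06), Tnfsf15 at -0.20 (SE 0.314) and Ccl25 at -0.10 (SE 0.304). Without water with TST replicate 2, Cx3cl1 was at -0.27, Ccl27a at -0.31, Il16 at 0.52, Il34 at 0.13 and Ccl25 at 0.08, and 2 genes passed (background 3.09%), Il1a at 0.98 and Ccl17 at -0.71. Without replicate 1, 14 passed (background 17%), and without either high-dose array 1 passed (1.59% and 1.81% of all rows). The methods' analysis of variance called 4 genes (background 2.92%): Il5 at 0.435, Ccl4 at 0.28, Cxcl13 at -0.415 and Cxcl17 at -0.465. In 25 genes (29.8%) the groups did not overlap, where 30.5% of all rows did not.

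The difference between high and low dose is taken between arrays of neither water group, but its error comes from the fit of all 8 arrays. Ccl21a, Ccl21b and Ccl21c passed the study's threshold, all lower with the high dose. As Ccl21b and Ccl21c hold the same values, the 3 calls are 2 measurements. Counted as 3 genes they make 3.57% of the 84, a share that would be lower with the identical rows counted as 1. The background was 1.91% of all rows and 0.968% in the lower direction. The difference was -0.59 (SE 0.212) for Ccl21a and -0.63 (SE 0.272) for the other copies, lower on both high-dose arrays, with an adjusted p = 1 in limma. The high-dose mean of Ccl21a was 7.42 ± 0.0283 (SD, n = 2), near that of water with TST at 7.40 ± 0.0636.

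Among the brighter genes, Il33 was at 0.705 (SE 0.364), Il16 at 0.38 (SE 1.06) and Csf1 at 0.31 (SE 0.228), and Tnfsf15 and Cxcl14, at the lower end, were at -0.375 (SE 0.314) and -0.345 (SE 0.401), none past the threshold. Il33 rested on single arrays: it was at 1.12 without low-dose RE replicate 1 and 1.15 without high-dose RE replicate 2, both past the threshold, and at 0.295 and 0.26 without the other array of each pair. Cxcl14 was at 0.095 without low-dose RE replicate 1 and -0.785 without replicate 2. Csf1 ranged from 0.19 to 0.43. The median difference was -0.01 against -0.005 over all rows, and 24 genes (28.6%) did not overlap, where 26.6% of all rows did not. The Ccl21b and Ccl21c call was lost with a replicate block, a trended robust prior and quantile normalization, and held in 2 of the 8 fits without 1 array, those without either array of water with TST. Ccl21a missed the threshold without low-dose RE replicate 2 (-0.54) and without either high-dose array (-0.61 and -0.57), and the count of genes past it was 1 without either array of water without TST (1.41% of all rows), 1 without low-dose RE replicate 2 (3.22%), 0 without high-dose RE replicate 1 (1.11%) and 2 without its replicate 2 (1.41%). It was 4 without low-dose RE replicate 1 (5.33% of all rows) and without either array of water with TST (2.87%). The analysis of variance called 6 genes (background 2.52%), the 3 Ccl21 genes with Ccl12 at 0.385, Il25 at -0.315 and Tnfsf15.

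**Figure D5:**
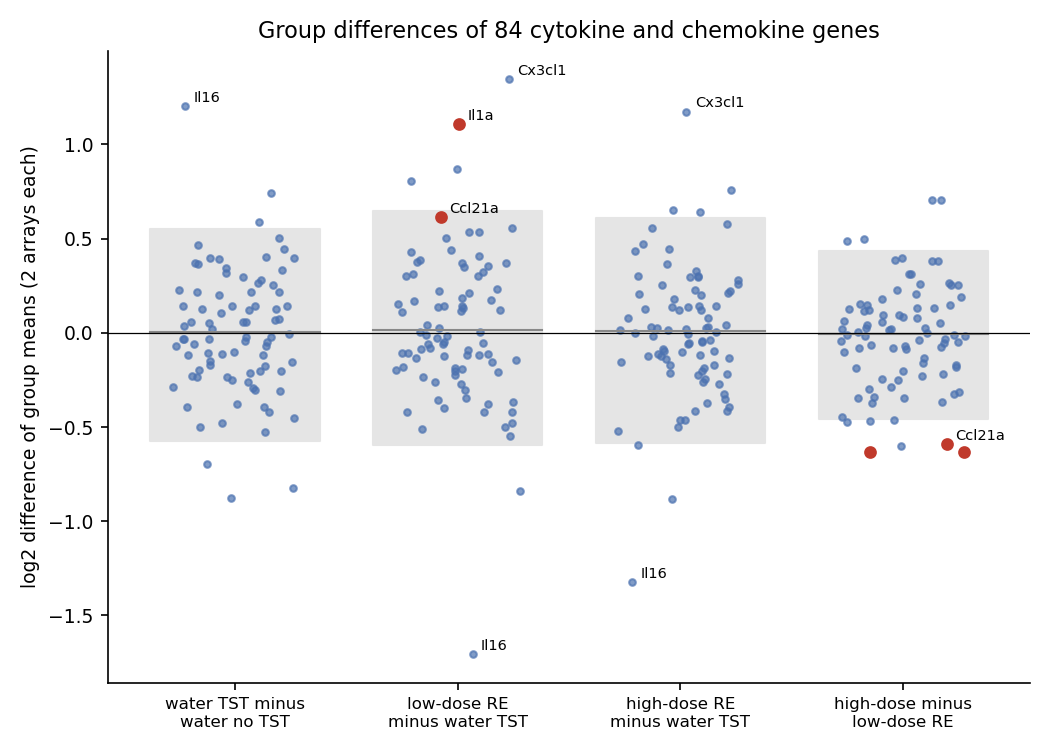
Log2 differences of group means (2 arrays a group) of the 84 genes in 4 comparisons, 1 point per gene, spread sideways to avoid overlap; red points passed the study's threshold, grey bands hold the middle of all rows, with 9.87% to 9.93% outside, and the grey line is their median. Red points appear for Il1a and Ccl21a with low-dose RE and for the 3 Ccl21 genes between doses. Il16, Cx3cl1, Il34 and Il1a lie outside the bands in the 3 comparisons with water with TST. The values of Il16, Cx3cl1 and Il34 rest on replicate 2 of that group. Without that array Il1a was at -1.04, 1.45 and 0.98. These 3 values share the 1 array of water with TST that was left, at 3.97, the lowest of the 8 for Il1a. Without replicate 1 of that group instead, the low-dose difference of Il1a was 0.77.

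A difference among any of the 4 groups was also tested. By limma's moderated F-test 0 of the 84 genes had an unadjusted p under 0.05, where the background was 1.82% of all rows, and 0 had an adjusted one. The lowest unadjusted values were 0.0636 for Ccl21a and 0.0640 for Il1a. The methods' analysis of variance over 4 groups called Ccl21a, Il10 and Cxcl17 (background 3.22%), again named after their values were seen. Replicates of these genes differed about as much as those of other rows: the median pooled SD within groups was 0.309 for the 84 genes, 0.294 for all rows and 0.315 for all rows below the median of all values.

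The dimmer members differed between the low-dose arrays in the same direction as other dim rows did. On low-dose RE replicate 2 the median deviation of the 67 dimmer members from their 8-array mean was 0.211, and of all rows below the median of all values 0.131. On low-dose RE replicate 1 they were -0.14 and -0.104. That pair is thus split, with 21 of 84 genes highest on replicate 2 (25%, against 17.8% of all rows) and 20 lowest on replicate 1 (23.8%, against 13% of all rows). On the other 6 arrays the dimmer members lay between -0.0688 and 0.105. The lower quartile of all values was 5.81 on low-dose RE replicate 2, the highest of the 8 arrays, and 5.48 on replicate 1, the lowest. After quantile normalization the member deviations were 0.0995 and -0.012. The mean deviation of 11 lymphocyte markers was also highest on low-dose RE replicate 2, at 0.409 against -0.179 to 0.152 elsewhere. That of 11 choroid plexus markers was too, at 0.738 against at most 0.256 elsewhere. In the low-dose comparison 11 of 11 choroid plexus markers were higher with 1 past the threshold, and 6 of 10 thalamic markers passed it, all higher. Of all rows 51.9% were higher and 3.54% passed. Some other lists were as one-sided: 12 of 12 dentate gyrus and hippocampal markers were higher and 10 of 10 cerebellar markers lower. Endothelial markers were split, with 5 higher and 7 lower. The choroid plexus and thalamic lists were lowest on water with TST replicate 2, with mean deviations of -1.22 (choroid plexus) and -1.07 (thalamic). On replicate 1 of that group they were 0.256 and 0.005. The counts were not made without that replicate 2. The part of these markers in the members' differences was not tested.

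The receptors and signalling genes downstream of these ligands were counted from lists written out from textbook knowledge. Of 20 measured chemokine receptor genes, 2 had means above the median of all values. With TST 1 passed the threshold, the monocyte receptor gene Ccr2 at -0.78 (SE 0.251). With low-dose RE 2 passed, Ccr6 at 0.755 (SE 0.325) and the decoy receptor gene Ackr1 at -1.42 (SE 0.569), and with high-dose RE 1, Ccr6 at 0.99 (SE 0.325). Between doses 0 passed. Of 40 interleukin and growth factor receptor genes, 13 were above the median. With low-dose RE 3 passed, Il7r at 1.32 (SE 0.383) and Csf2rb at 0.84 (SE 0.331) higher and Il13ra2 at -0.69 (SE 0.270) lower, and 0 in the other comparisons.

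Of 24 genes of the tumour necrosis factor receptor superfamily, Ltbr, the lymphotoxin beta receptor gene, passed in both RE comparisons, at -0.705 (SE 0.219) with the low and -0.825 (SE 0.219) with the high dose; these share their controls. No other gene of that list passed in any comparison. Of 21 JAK, STAT and SOCS genes, Stat4, the transducer of Il12 signals, passed at 0.775 (SE 0.297) with the high dose and at 0.78 (SE 0.297) between doses, and 0 with TST or the low dose. Of 25 genes of NF-kappa-B signalling 0 passed in any of the 4 comparisons; 20 were higher and 5 lower with TST (median 0.145), 9 higher and 16 lower with low-dose RE (median -0.165), 13 and 12 with high-dose RE (median 0.005), and 17 and 8 between doses (median 0.1). Of all rows 50.2%, 51.9%, 51.2% and 48.9% were higher, and the first 3 comparisons share the arrays of water with TST. In all 5 lists and all 4 comparisons, 0 genes had an adjusted p under 0.05 in limma. The backgrounds of all rows were 2.55%, 3.54%, 3.17% and 1.91%. The lists were not counted without water with TST replicate 2, so how far the first 3 comparisons rest on that array was not tested.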

How the data were processed

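RNA of 8 samples in 4 groups of 2 was measured on Clariom S arrays. The authors normalized the arrays with RMA in Transcriptome Analysis Console 4.0.1, per the series' design text, and deposited log2 values rounded to 2 decimals. As 1359 values lie above 16 (maximum 19.79), the log2 scale may be stretched. With 2 arrays a group, it is the number of arrays that limits precision, and there are no detection calls. Symbols came from the platform annotation, which named 19572 of 22206 rows with 1 symbol, 0 with several and left 2634 unnamed. The sources used here give no build for the array, so rows have no coordinates.

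Group means were fitted to all 8 arrays and all rows with limma 3.58.1 in R 4.3.3 (4 residual degrees of freedom, prior 4.30), using two-sided tests and Benjamini-Hochberg adjustment across rows, and the fit was tested on simulated data. The members and lists were chosen with earlier results of these data known. Named were preset genes, members past the study's threshold, and the 3 largest differences each way among members above the median; other names were picked after their values were seen. Alternatives were a replicate block, other priors, filters and normalization, left-out arrays and the methods' analysis of variance; leaving out both arrays high in cerebellar markers was added after the data were seen.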

Additional observations from a re-analysis of the deposited data

Results flagged for a closer look

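Il10 was marked because the 2 doses moved away from water with TST in opposite directions on every array. It was at 6.66 and 6.59 in water with TST, 6.36 and 6.52 with low-dose RE, and 6.69 and 6.72 with high-dose RE. High minus low dose was 0.265 (SE 0.214), with an unadjusted p = 0.249 in limma, so the difference between doses did not pass a test, and all of these values are dim. The lower high-dose array, 6.69, was just above the higher array of water with TST, 6.66. The pattern was searched for among the 84 genes only, and its share over all rows was not counted. In the low-dose and high-dose comparisons taken alone, groups did not overlap in 25% and 30.5% of all rows.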

How the results depend on the processing

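The count of 17 genes above the median of all values was the same in all 13 alternatives run. Counts of members past the study's threshold are small and moved. They were 0 for TST, 2 for the low dose, 0 for the high dose, 3 between doses and 0 for any group. With 1 array left out they ranged from 0 to 12, 1 to 15, 0 to 14, 0 to 4 and 0 to 8, each highest without water with TST replicate 1 (between doses also without its replicate 2 or low-dose RE replicate 1), where 16.7%, 17%, 17%, 2.87% and 12.6% of all rows passed. The median differences ranged from -0.03 to 0.0775, -0.12 to 0.158, -0.065 to 0.06 and -0.148 to 0.0825. With a replicate block the TST, dose and any-group counts became 1 each (2.24%, 1.84% and 1.51% of all rows), and the low-dose count was 2. Same-numbered arrays share only a number: their deviations correlated between -0.293 and 0.169 over pairs of groups. In the fit of only the groups compared, and without the dimmest 25% of rows, the low-dose count was 1 (1.2% and 3.38% of all rows). With a trended robust prior the dose count was 1 (1.62%). Quantile normalization gave 2 for TST, 1 for dose and 1 for any group (3%, 2.28% and 2.31%). The methods' analysis of variance gave 4, 4, 6 and 3 for TST, high dose, dose and any group (2.72%, 2.92%, 2.52% and 3.22%). Without both arrays high in cerebellar markers the TST, high-dose and any-group counts were 2 each (2.72%, 2.81% and 2.27%). The causes were not tested. Among 419 values of named genes under these settings, 353 kept their direction and side of the threshold, 28 fell below the threshold, 16 passed it and 22 changed sign without being past it. Many of these settings cannot change a difference, so its direction was fixed in advance there. Such settings are a replicate block, another prior, a row filter, the analysis of variance and an array left out of a group not compared. With 2 arrays a group and most members dim, small differences are not measurable here.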
